A study of Mus musculus with 6 samples.

Results

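The genes Fabp1 to Fabp7, which encode 7 fatty acid-binding proteins, were followed across the epithelium and the mesenchyme of the small intestine of mouse embryos. Members were all probe sets whose gene symbol in the platform annotation equalled one of these names, which gave 13 of 45037 probe sets and 7 of 18161 genes. No probe set of a member was shared with another gene in that annotation. Fabp4 had 4 probe sets, Fabp1, Fabp3 and Fabp5 had 2 each, and Fabp2, Fabp6 and Fabp7 had 1 each.

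The study asked how gene expression differs between these compartments. Intestines from duodenum to cecum were taken at E18.5, shortly before birth, from embryos of C57BL/6 females, with no treatment or altered allele named, and the epithelium was loosened without enzymes during 9 hours in the cold. Each of 6 Affymetrix Mouse Genome arrays carried RNA pooled from 3 embryos, and each tissue had 3 such arrays, which the labels letter A to C. The pools were chosen out of 6 per tissue for low contamination by RT-PCR, so any spread seen is that between selected pools. The p-values from limma given below also rest largely on a spread shared by all probe sets. The mesenchyme here is everything left after the epithelium was shed, including muscle, vessels, nerves and blood cells, and in such bulk samples fewer cells of a type and less RNA per cell cannot be told apart. The deposited values are log2 expression values.

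Fatty acid-binding proteins are small cytosolic proteins that hold long-chain fatty acids, or in some members bile acids, haem or endocannabinoids, inside a barrel-shaped cavity. They carry these water-insoluble ligands between membranes, enzymes and the nucleus, where several of them deliver ligands to PPAR receptors. Fabp1 (liver type) and Fabp2 (intestinal type) are classical products of the absorptive enterocyte, and Fabp6 is the ileal bile acid-binding protein. Fabp3 (heart type), Fabp4 (adipocyte type, also made by capillary endothelium and macrophages), Fabp5 (epidermal type) and Fabp7 (brain type, a protein of glial cells and their precursors) are known mainly from other tissues.

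The family was divided between the compartments. Fabp1, Fabp2 and Fabp6 were higher in the epithelium, by 3.00, 3.27 and 3.37 on the log2 scale, and Fabp4, Fabp7 and Fabp5 were higher in the mesenchyme, by 7.13, 4.57 and 2.43, each in the brightest probe set of the gene. Fabp3 did not pass the test in either direction. A probe set or gene counted as changed when its adjusted p was under 0.05 (limma, Benjamini-Hochberg adjustment) and its difference at least 2-fold. By this rule 11 of the 13 probe sets were called, 4 with more signal in epithelium and 7 with more in mesenchyme, beside 21.5% of all probe sets tested (5.98% for epithelium, 15.5% for mesenchyme). Counted by gene, 3 members were epithelial, 3 mesenchymal and 1 was not called, beside 24.1% of all 18161 genes (8.2% and 15.9% by direction). The same 11 probe sets had arrays that did not overlap between the tissues, beside 41.7% of all probe sets. An exact two-sided permutation test gave each of them p = 0.1, the smallest p that 3 against 3 arrays allow.

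**Figure D1:**
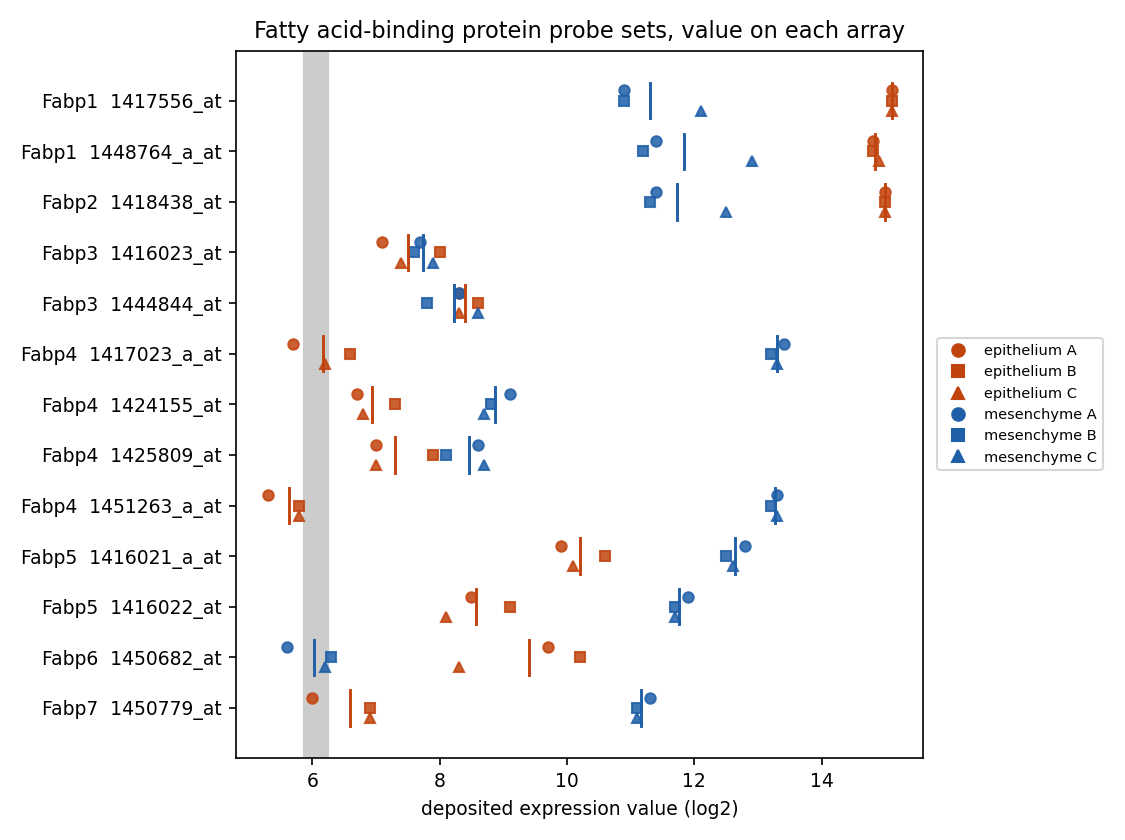
Deposited log2 value (x axis) of each of the 13 probe sets (y axis) on each of the 6 arrays, with epithelium in orange and mesenchyme in blue, symbols for replicates A, B and C, and a vertical bar at each tissue mean; the grey band is the range of the array means of 27 bacterial control probe sets (5.87 to 6.25). Fabp1, Fabp2 and Fabp6 lie to the right in the epithelium, Fabp4, Fabp5 and Fabp7 in the mesenchyme, and the tissues overlap only for Fabp3.

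Fabp2, the intestinal paralog, stood at 15.0, 15.0 and 15.0 in epithelium A, B and C and at 11.4, 11.3 and 12.5 in mesenchyme A, B and C (probe set 1418438_at). The epithelial arrays gave 1 value to the rounding of the file, and mesenchyme C lay above the other mesenchymal arrays, with no overlap between tissues. The difference was 3.27 ± 0.26 (SE, 3 arrays per tissue), a fold of 9.62, with an adjusted p of 2.61e-13 over all probe sets in limma. Fabp1, the liver-type paralog, which also binds bulkier ligands such as haem and acyl-CoA, stood at 14.8, 14.8 and 14.9 in the epithelium against 11.4, 11.2 and 12.9 in the mesenchyme (1448764_a_at). Its other probe set, 1417556_at, gave 15.1, 15.1 and 15.1 against 10.9, 10.9 and 12.1. Both probe sets were thus nearly constant in the epithelium and highest within the mesenchyme on array C. The differences were 3.00 ± 0.29 and 3.80 ± 0.26 (SE, 3 arrays per tissue), with adjusted p-values of 3.96e-11 and 5.49e-15 in limma.

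The equal epithelial values of Fabp1 and Fabp2 lay at the top of the measured range. The highest value on the epithelial arrays was 15.2, and 7 probe sets reached 15 or more on all 3 of them. These were 1 of Fabp1, 1 of Fabp2, 4 of the apolipoprotein gene Apoa1 and 1 of Apoa4, all genes of enterocyte lipid handling. Whether the scanner's upper range limited these values was not tested. The standard errors of the fit are drawn towards a spread shared by all probe sets; from the 3 arrays per tissue alone they would be 0.54 and 0.40 for the Fabp1 probe sets and 0.38 for Fabp2.

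Mesenchyme C carried more Fabp1 and Fabp2 signal than mesenchyme A and B. The excess of C over the mean of A and B was 1.60 and 1.20 for the probe sets of Fabp1 and 1.15 for Fabp2 on the log2 scale. As a share of the epithelial mean, Fabp2 stood at 8.25%, 7.69% and 17.7% in mesenchyme A, B and C, and Fabp1 (1448764_a_at) at 9.26%, 8.06% and 26.2%. Of the 10 measured enterocyte markers, 8 were highest in mesenchyme C among the mesenchymal arrays, with a median excess of 0.65. The share was 39.4% among genes called higher in the epithelium (median excess 0.1) and 29.4% among all genes. The log2 of the summed level of these markers was 12.14, 12.09 and 12.74 in mesenchyme A, B and C and 16.66 to 17.05 in the epithelium. None of them was at 0, and their lowest value on any array was 6.2, close to the bacterial controls. Among the 9 smooth muscle and 7 fibroblast markers, 1 of each list was highest in mesenchyme C, beside 8.13% of all genes called higher in the mesenchyme. Of 406 genes called higher in the epithelium with an epithelial mean of at least 12, 2 had an excess in mesenchyme C as large as that of Fabp1 and 7 as large as that of Fabp2, both counts including the member itself. Only mesenchyme C, where both members were highest, was ranked in this way, so these places are partly fixed by that choice. The part of epithelial tissue left in the mesenchymal pools in these values was not tested. Without mesenchyme C, the differences were 3.53 and 4.20 for Fabp1 and 3.65 for Fabp2.

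**Figure D2:**
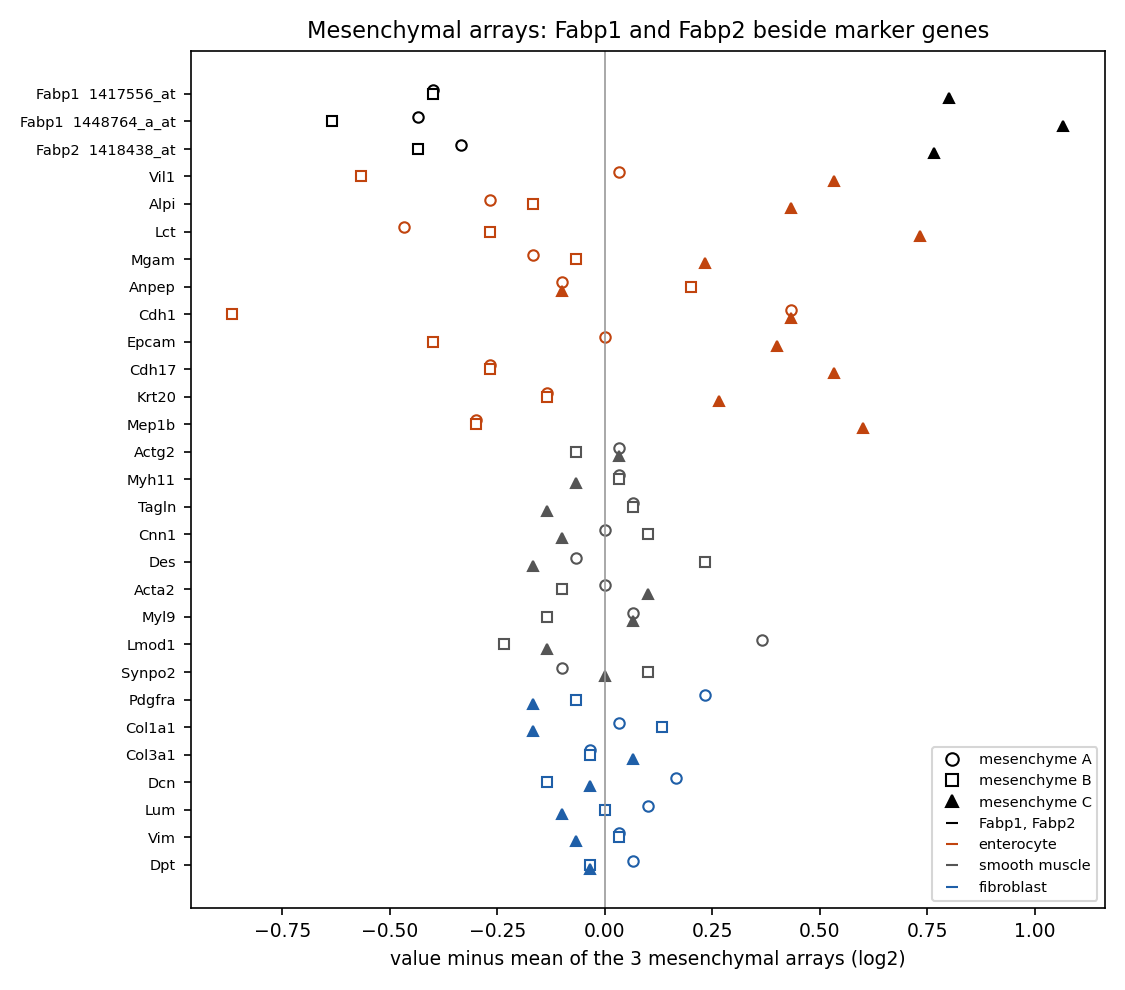
Value on mesenchyme A (open circle), B (open square) and C (filled triangle) minus the mean of the 3 mesenchymal arrays (x axis, log2) for Fabp1, Fabp2 (black) and the marker genes of enterocytes (orange), smooth muscle (grey) and fibroblasts (blue). Fabp1, Fabp2 and 8 of 10 enterocyte markers are highest on array C, while most smooth muscle and fibroblast markers lie near 0 on all 3 arrays.

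The bile acid-binding member Fabp6 stood at 9.7, 10.2 and 8.3 in epithelium A, B and C and at 5.6, 6.3 and 6.2 in mesenchyme A, B and C (1450682_at). Epithelium C was lowest of its tissue, and the mesenchymal values lay at the level of the bacterial control probe sets, whose array means ran from 5.87 to 6.25. The difference was 3.37 ± 0.30 (SE, 3 arrays per tissue), with an adjusted p of 8.01e-12 in limma, and 3.92 without epithelium C. From its own arrays alone the standard error would be 0.61, the largest among the members, because of an SD of 0.98 in the epithelium. On epithelium C, Fabp6 minus the mean of epithelium A and B was -1.65 (log2). Genes were ranked in this way only on epithelium C, where Fabp6 was lowest, so its place is partly fixed by that choice. Among the 1489 genes called higher in the epithelium, 2 dropped as far there, Fabp6 itself and the carboxylesterase gene Ces1c. Next came Mptx1, with 10.6, 10.6 and 9.0 in epithelium A, B and C, the goblet cell gene Clca1, with 12.8, 13.1 and 11.4, and Fgf15, the bile acid-induced ileal hormone, with 9.6, 10.5 and 8.5; these names were chosen after their values were seen.

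Other genes of ileal bile acid handling were higher in the epithelium as well. Among 9 measured genes of this list, 7 were called for the epithelium, 1 for the mesenchyme and 1 was not called, with a median difference of 2.57 beside -0.17 over all genes. Slc51a, a subunit of the basolateral bile acid exporter, differed by 4.40 ± 0.25 (SE), the bile acid receptor gene Nr1h4, which is known to act on Fabp6, by 3.67 ± 0.24, and the canalicular-type pump gene Abcc2 by 6.03 ± 0.24. Fgf15 differed by 1.57 ± 0.31, with 8.5 in epithelium C next to 8.4 in mesenchyme C. Slc10a2, the apical bile acid importer of the mature ileum, ran from 4.9 to 5.5 over all 6 arrays, below the mean of the bacterial controls, and did not pass (difference -0.13, 95% interval -0.60 to 0.34). Abcc3, a basolateral pump, was higher in the mesenchyme by 1.10 ± 0.23, a call lost with quantile normalization (0.77), cyclic loess (0.84) or equal array medians (0.80) and without mesenchyme A (0.95).

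**Figure D3:**
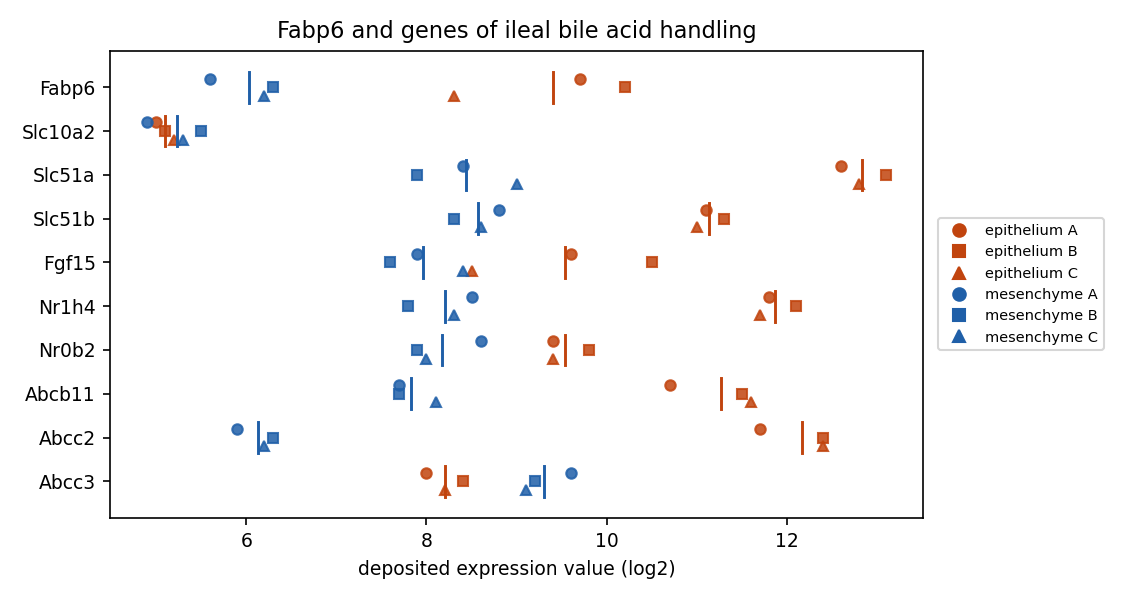
Deposited log2 value (x axis) of Fabp6 and of 9 genes of ileal bile acid handling (y axis) on each array, with epithelium in orange, mesenchyme in blue, symbols for replicates and a vertical bar at each tissue mean. Epithelium C (triangle) is the lowest epithelial array for Fabp6 (8.3) and Fgf15 (8.5) and lies with A and B for Slc51a, and Slc10a2 stays between 4.9 and 5.5 on all arrays.

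RefSeq sequence upstream of the start (GRCm38.p6) was given for 5 of the 7 members, Fabp1, Fabp2, Fabp3, Fabp6 and Fabp7. It is shown for the 3 genes that were higher in the epithelium and for Fabp3, which was not called. The window of Fabp7, the only mesenchymal member with sequence given, is described below but not shown. Each line holds the 250 bases before the annotated start, 5′ to 3′ on the gene's strand, in lower case. Capitals mark any of 4 words of 6 letters, searched on both strands. The TATA box was searched as TATAAA. The half-site of nuclear receptors was searched as AGGTCA. The word of Cdx factors was searched as TTTATT, and that of Gata factors as AGATAA. The reverse complement of the Cdx word can share letters with a TATA box, but did not in these windows. The windows are chr6:71199629-71199878 (+ strand) for Fabp1, chr3:122894822-122895071 (+ strand) for Fabp2, chr11:43601563-43601812 (- strand) for Fabp6 and chr4:130308488-130308737 (+ strand) for Fabp3.
Fabp1: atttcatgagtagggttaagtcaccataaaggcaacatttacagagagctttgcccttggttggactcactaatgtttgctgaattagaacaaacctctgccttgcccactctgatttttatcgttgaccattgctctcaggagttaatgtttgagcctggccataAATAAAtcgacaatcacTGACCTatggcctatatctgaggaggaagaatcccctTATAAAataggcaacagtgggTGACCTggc
Fabp2: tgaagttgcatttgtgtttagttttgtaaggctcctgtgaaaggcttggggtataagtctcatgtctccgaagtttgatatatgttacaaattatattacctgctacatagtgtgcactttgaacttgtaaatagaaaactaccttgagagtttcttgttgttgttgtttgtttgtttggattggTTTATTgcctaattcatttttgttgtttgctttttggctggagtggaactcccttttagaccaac
Fabp6: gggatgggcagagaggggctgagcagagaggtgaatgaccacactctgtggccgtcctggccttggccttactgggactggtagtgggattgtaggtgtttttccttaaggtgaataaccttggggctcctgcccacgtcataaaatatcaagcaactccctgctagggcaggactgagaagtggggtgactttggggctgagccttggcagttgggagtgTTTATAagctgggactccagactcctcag
Fabp3: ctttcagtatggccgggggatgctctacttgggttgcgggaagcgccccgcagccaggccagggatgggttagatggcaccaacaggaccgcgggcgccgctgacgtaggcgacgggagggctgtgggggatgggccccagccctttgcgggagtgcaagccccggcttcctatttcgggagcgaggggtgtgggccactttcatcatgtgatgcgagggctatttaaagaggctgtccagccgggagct

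Fabp1 had a TATAAA whose first base lay 30 bases before the start, a TTTATT on the other strand beginning at base 84, and AGGTCA on the other strand at bases 67 and 9. Fabp6 had TATAAA on the other strand at base 29, and Fabp2 had TTTATT at base 65 and none of the other words. None of the 4 words was found in the window of Fabp3, and that of Fabp7 had AGGTCA on the other strand at base 171. Among 32851 upstream windows of the table, 12.4% held TATAAA, 14.0% AGGTCA, 18.1% TTTATT and 9.99% AGATAA. The windows also differed in composition. That of Fabp3 had 64.8% G or C and 17 CG dinucleotides, against 42.8% and 2 for Fabp1, 35.6% and 1 for Fabp2, 54.8% and 2 for Fabp6 and 54.8% and 4 for Fabp7, with medians of 52.4% and 6 over all windows. A match is a description of these letters only.

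Among transcription factors known from gut epithelium, several of which are known to act on Fabp1 and Fabp2, 12 of 15 measured were called higher in the epithelium and none higher in the mesenchyme, with a median difference of 2.80 beside -0.17 over all genes. Values ran from Klf5 (3.77 ± 0.24, SE) and Gata6 (3.63 ± 0.23) to the 3.27 ± 0.28 of Hnf4g among the 4 with the largest differences, which also include Nr1h4. This order is that of the brightest probe sets. Under other scalings, fits and choices of probe set, Klf5 gave 2.03 to 4.07, Gata6 2.40 to 3.93 and Hnf4g 2.92 to 4.48.

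Among the mesenchymal members, Fabp4, the adipocyte-type paralog, stood at 5.7, 6.6 and 6.2 in epithelium A, B and C and at 13.4, 13.2 and 13.3 in mesenchyme A, B and C (1417023_a_at). Probe set 1451263_a_at gave 5.3, 5.8 and 5.8 against 13.3, 13.2 and 13.3. In both, the epithelial values lay around the bacterial controls and the mesenchymal values within 0.2 of each other. The differences were -7.13 ± 0.24 and -7.63 ± 0.23 (SE, epithelium minus mesenchyme), folds of 140 and 199, with adjusted p-values of 1.75e-23 and 2.96e-24 in limma. By the first of these, Fabp4 ranked 5 of 18161 genes by excess in the mesenchyme. With one side at background, these folds understate the contrast by an amount the file does not give.

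The other probe sets of Fabp4 gave smaller differences. Probe set 1424155_at stood at 6.7, 7.3 and 6.8 in the epithelium against 9.1, 8.8 and 8.7 in the mesenchyme, a difference of -1.93 ± 0.23 (SE). Probe set 1425809_at stood at 7.0, 7.9 and 7.0 against 8.6, 8.1 and 8.7, a difference of -1.17 ± 0.25 (adjusted p = 0.000258 in limma). All 4 probe sets thus had the same direction without overlap, and sizes from 1.17 to 7.63. The call of 1425809_at was lost with quantile normalization (-0.86), cyclic loess (-0.95) and equal array medians (-0.87), in each case because the difference came under 2-fold. In the mean of its 4 probe sets, Fabp4 differed by -4.47 ± 0.22 (SE).

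**Figure D4:**
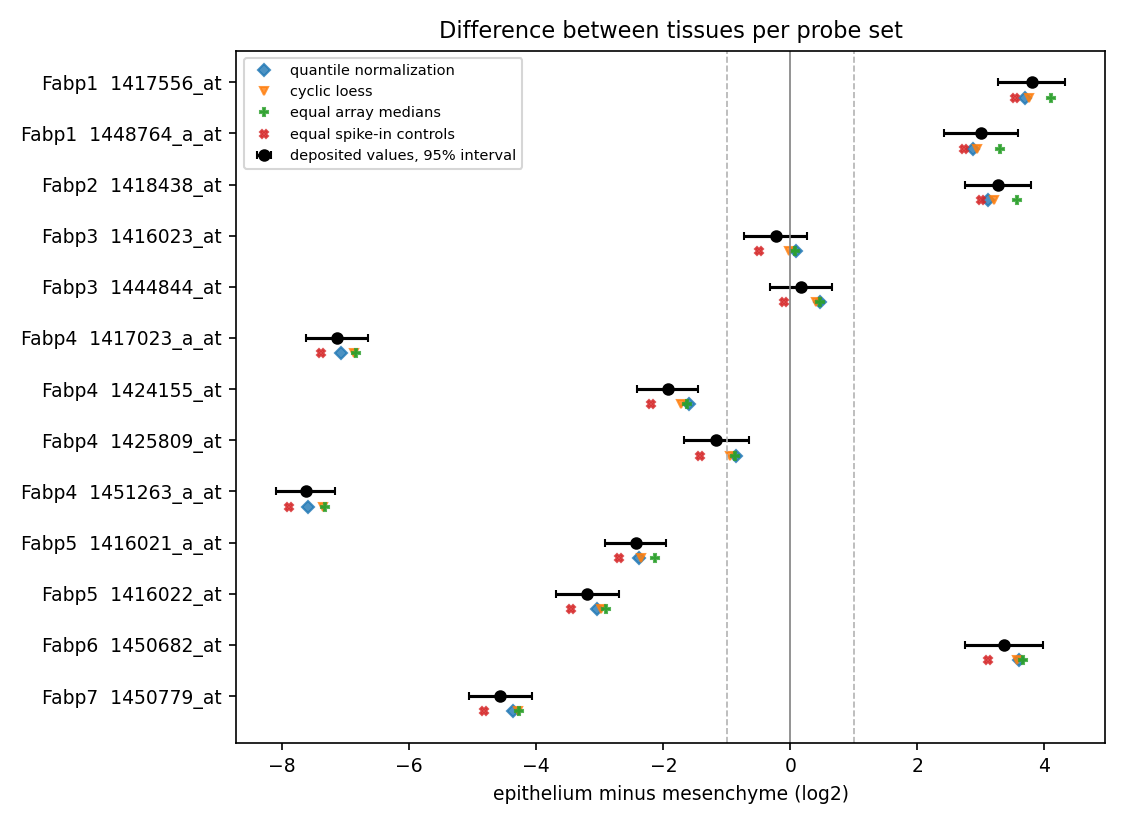
Difference between tissues (x axis, epithelium minus mesenchyme, log2) for each of the 13 probe sets (y axis), with the 95% interval from limma (black) and the values under 4 other scalings of the arrays (coloured marks); dashed lines mark a 2-fold difference. The probe sets of Fabp4 run from -7.63 to -1.17, and under other scalings only those of Fabp3 change sign.

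Markers of cells known to make Fabp4 were set beside it. Of 13 measured markers of capillary and lymphatic endothelium, 12 were called higher in the mesenchyme and none higher in the epithelium (median -3.47); the log2 of their summed level was 11.7 to 12.1 in the epithelium and 15.0 to 15.3 in the mesenchyme. Plvap, a protein of fenestrated capillaries, differed by -5.60 ± 0.24 (SE), the lymphatic receptor gene Lyve1 by -5.23 ± 0.26 and Gpihbp1, which anchors lipoprotein lipase to capillaries, by -2.03 ± 0.23. Of 10 macrophage markers, 7 were called higher in the mesenchyme (median -2.35), with summed levels of 13.72 to 14.11 in the epithelium and 14.80 to 14.91 in the mesenchyme. Most of the epithelial sum came from Csf1r, which was not called. It stood at 13.4, 13.8 and 13.5 in the epithelium against 13.2, 13.1 and 13.2 in the mesenchyme. Of 7 measured adipocyte markers, none was higher in the mesenchyme and 1 was higher in the epithelium, with summed levels of 11.65 to 12.01 in the epithelium and 10.97 to 11.26 in the mesenchyme. The adipocyte hormone gene Adipoq stood at 6.0, 6.2 and 6.1 in the epithelium against 6.3, 6.5 and 6.7 in the mesenchyme, near the bacterial controls, and the 1 gene called was Cidec, a lipid droplet protein (3.77 ± 0.23). Which of these cells gave the Fabp4 signal was not tested.

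Fabp5, the epidermal-type paralog, stood at 9.9, 10.6 and 10.1 in epithelium A, B and C and at 12.8, 12.5 and 12.6 in mesenchyme A, B and C (1416021_a_at), and at 8.5, 9.1 and 8.1 against 11.9, 11.7 and 11.7 in its other probe set (1416022_at). In both, the tissues did not overlap, and the epithelial values lay above the array means of the bacterial controls. In 1416022_at, the value of epithelium C (8.1) was under the highest single control there (8.3). The differences were -2.43 ± 0.24 and -3.20 ± 0.24 (SE), folds of 5.40 and 9.19, with adjusted p-values of 5.47e-11 and 1.11e-13 in limma. The genome holds processed copies of Fabp5, and whether their transcripts add to these probe sets was not tested.

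In the gene order of RefSeq, Fabp5 and Fabp4 lie on one chromosome with other members of the extended family between and beside them, in the order Fabp5, Pmp2, Fabp9, Fabp4, Fabp12. Pmp2, the myelin paralog, stood at 6.8, 6.8 and 6.9 in the epithelium against 6.5, 7.2 and 7.3 in the mesenchyme, and Fabp9, the testis paralog, at 6.3, 6.6 and 6.7 against 5.9, 6.7 and 6.4. Pmp2 and Fabp9 are named for their place in this order. Neither passed (differences -0.17 ± 0.24 and 0.20 ± 0.24, SE). Fabp12 was called higher in the mesenchyme by 1.10 ± 0.25, with 7.4, 8.0 and 7.4 against 8.5, 8.3 and 9.3. That call was lost without mesenchyme C (0.80), where it was highest, and with quantile normalization, cyclic loess and equal array medians. The large mesenchymal excess of Fabp4 and Fabp5 was thus not measured for the genes between them.

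Fabp7, the brain-type paralog, stood at 6.0, 6.9 and 6.9 in epithelium A, B and C and at 11.3, 11.1 and 11.1 in mesenchyme A, B and C (1450779_at). The mesenchymal arrays agreed within 0.2 and the epithelial ones lay near the bacterial controls, without overlap. The difference was -4.57 ± 0.25 (SE), a fold of 23.7, with an adjusted p of 6.01e-18 in limma. Markers of enteric glia and neural crest were mixed: of 8 measured, 3 were called higher in the mesenchyme and 1 higher in the epithelium, with a median of -0.57 and summed levels of 12.37 to 12.79 in the epithelium and 14.00 to 14.12 in the mesenchyme. Ednrb, a receptor of enteric neural crest that other mesenchymal cells also carry, differed by -6.70 ± 0.24 (SE), Ngfr by -1.83 ± 0.22 and Cdh19 by -1.73 ± 0.25. Sox10, the defining factor of this lineage, stood at 9.5, 9.7 and 9.9 against 10.4, 10.6 and 10.6. Its difference of -0.83 ± 0.23 came short of 2-fold. It passed with equal spike-in controls (-1.09), a scaling moved mostly by the low controls of mesenchyme B. S100b stood at 7.7 to 8.1 on all arrays, and Erbb3, also made by epithelium, was higher there by 2.03 ± 0.23. Most of the summed level of this list came from Erbb3 in the epithelium and from Ednrb in the mesenchyme. Of 9 measured markers of enteric neurons, 6 were higher in the mesenchyme (median -3.60). The part of any of these cells in the Fabp7 signal was not tested.

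Fabp3, the heart-type paralog, stood at 8.3, 8.6 and 8.3 in the epithelium against 8.3, 7.8 and 8.6 in the mesenchyme (1444844_at), and at 7.1, 8.0 and 7.4 against 7.7, 7.6 and 7.9 (1416023_at). The tissues overlapped in both probe sets. Both lay above the array means of the bacterial controls. On every array, however, 1416023_at was at or below the highest single control there (7.6 to 8.3 over the arrays), and 1444844_at was at or above it. Whether these values reflect Fabp3 transcript or background was not tested. The differences, 0.17 (95% interval -0.32 to 0.65) and -0.23 (-0.72 to 0.26), had opposite signs, and each changed its sign under at least 1 other scaling of the arrays. Both intervals lay within 2-fold, and adjusted p-values were 0.633 and 0.494 in limma. With quantile normalization 1444844_at gave 0.47 with an adjusted p of 0.034, under 2-fold, whereas equal spike-in controls gave -0.09. Of 10 striated muscle markers, 5 were called higher in the mesenchyme and 1 higher in the epithelium (median -1.17). The cardiac troponin gene Tnnt2 had the largest difference of this list, -5.47 ± 0.22 (SE), and Myh7 (-3.33) and Actc1 (-2.60) were called in the same direction. Myh6 (-0.10), Myl2 (-0.20) and Tnni3 (-0.50) were not called, and Myl7 was the gene higher in the epithelium, by 1.60 ± 0.24.

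Within the epithelium, 5 of the 7 probe sets of Fabp4, Fabp5 and Fabp7 were highest on array B without a tie (71.4%), near the 75.4% of all genes, so this count is no result about the members. The medians of epithelium A, B and C were 8.1, 8.6 and 8.3. The epithelial SD of these 7 probe sets ran from 0.29 to 0.52 as deposited and from 0.10 to 0.38 after the array medians were made equal, and was lower in each of them. For the probe sets of Fabp1 and Fabp2 it was 0 to 0.06 as deposited and 0.25 to 0.26 with equal medians. Nearly equal values shifted by unequal medians must gain such a spread, so this does not show why they were constant. Fabp6 had 0.98 as deposited and 0.92 with equal medians.

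Members were also compared pair by pair by their difference within an array, which a constant shift of an array leaves as it is, but quantile or loess scaling does not. Of 21 pairs, 18 had within-array differences that did not overlap between the tissues. The 46.5% of genes without overlap when taken singly is not a like share, because these pairs were built mostly from called members. Of the 21, 9 were pairs of members called in opposite directions, where this is fixed by the choice. Pairs of Fabp3 with a called member largely repeat the call of that member. The exact permutation test gave these 18 pairs p = 0.1, the smallest possible, and an adjusted p of 0.117 over the 21 pairs, so that no pair could pass. The 3 pairs among the mesenchymal members were among those without overlap. Since Fabp4 and Fabp7 lay near the bacterial controls in the epithelium, the sizes of these shifts are not given. The 3 pairs that overlapped were those among the epithelial members. The shift of Fabp1 against Fabp2 was -0.27 (-0.2, -0.2 and -0.1 in the epithelium, 0.0, -0.1 and 0.4 in the mesenchyme; exact permutation p = 0.2, adjusted 0.221), that of Fabp1 against Fabp6 was -0.37 (p = 0.7, adjusted 0.735), and that of Fabp2 against Fabp6 was -0.10 (p = 0.9).

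Genes with the most similar profile were sought by the root mean square difference (log2) over the 6 arrays after centring each probe set on its own mean. For Fabp2 these were Spp2 (0.12), the regenerating protein gene Reg1 (0.17) and Apoa1 (0.20), and for Fabp1 Spp2 (0.26), Reg1 (0.26) and Mfsd4b1 (0.28). The first of these, Spp2, stood at 10.2, 10.5 and 10.4 in the epithelium against 6.9, 6.8 and 7.8 in the mesenchyme, also highest in mesenchyme C. The nearest profiles to Fabp6 were those of the mucin-type glycosyltransferase gene Gcnt3 (0.24), the proglucagon gene Gcg (0.26) and the steroid dehydrogenase gene Hsd17b2 (0.29). All of them were lowest in epithelium C of the epithelial arrays, with 8.7 for Gcg against 9.7 and 10.2. This low array, like the high mesenchyme C of Spp2, follows largely from choosing genes by these same values and adds no evidence. Fabp4 was nearest to the fibroblast receptor gene Pdgfra (0.15), the smooth muscle actin gene Actg2 (0.19) and the collagen gene Col3a1 (0.21). Such distances depend largely on the size of the difference between tissues, which was -6.97 to -7.23 for these 3 genes. Fabp7 was nearest to Dpysl3 (0.11), a gene of growing neurons, Trib2 (0.11) and the leukocyte gene Coro1a (0.12), and Fabp5 to Bicc1, Csnk1e and Dram1 (0.07 each). For Fabp3, Acsm2 and Nr6a1 (0.06 each) and Slc6a16 (0.07) came first, with differences of 0.13 to 0.23. With 6 arrays and many genes, such distances describe the arrays and carry no test.

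The wider family of intracellular lipid-binding proteins, which includes the retinoid carriers, was measured for 7 of 9 listed genes. Of these, 1 was called for the epithelium, 2 for the mesenchyme and 4 were not called, with a median of -0.17. Rbp2, the retinol carrier of enterocytes, stood at 14.1, 14.4 and 14.1 in the epithelium against 10.8, 10.9 and 11.3 in the mesenchyme, a difference of 3.20 ± 0.23 (SE) beside the 3.27 of Fabp2. Rbp7, a retinol carrier known from endothelium and fat, was higher in the mesenchyme by 1.30 ± 0.25 (0.99 with quantile normalization, where its call was lost). Crabp1 and Crabp2, carriers of retinoic acid, did not pass (-0.43 ± 0.22 and 0.03 ± 0.22).

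Genes that hand fatty acids to the binding proteins or take them over were described by count. Of 14 measured genes of fatty acid uptake and activation, 5 were called as epithelial and 1 as mesenchymal (median 0.57). The acyl-CoA synthetase gene Acsl5 differed by 3.03 ± 0.23 (SE), the transporter gene Slc27a4 by 2.63 ± 0.23 and Dbi, the acyl-CoA-binding protein, by 2.30 ± 0.23, whereas the synthetase gene Acsl4 was higher in the mesenchyme by 2.93 ± 0.28. Cd36, a fatty acid translocase that enterocytes and capillaries share, stood at 12.3, 12.6 and 12.4 against 11.7, 11.5 and 11.5, a difference of 0.87 ± 0.23 that came short of 2-fold and passed with equal array medians (1.17). Of 18 genes of triglyceride resynthesis and chylomicron assembly, 12 were called as epithelial and none as mesenchymal (median 2.42), among them Apob (5.07 ± 0.25), Mttp (4.40 ± 0.23), Apoc3 (3.97 ± 0.24) and Apoa1 (3.43 ± 0.24).

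The binding proteins are known to serve PPAR receptors. Of 8 genes of PPAR and RXR receptors and their coactivators, 2 were called higher in the epithelium, Ppara (2.00 ± 0.23, SE) and the coactivator gene Ppargc1b (1.10 ± 0.23), the latter lost with equal spike-in controls and without epithelium C. Pparg, the receptor known to drive Fabp4 in fat, stood at 8.7, 9.0 and 9.0 in the epithelium against 8.2, 8.3 and 8.4 in the mesenchyme, a difference of 0.60 ± 0.23 short of 2-fold and opposite in sign to that of Fabp4. Of 14 measured PPAR target genes, 8 were called as epithelial and 1 as mesenchymal (median 1.22). Ehhadh, of peroxisomal oxidation, differed by 4.60 ± 0.25 (SE), Cidec by 3.77 ± 0.23 and Acot1 by 3.03 ± 0.24, and the gene called in the mesenchyme was Lpl, the lipoprotein lipase (2.23 ± 0.23). Among 8 measured endocannabinoid and lipolysis genes, 3 were higher in the epithelium, including the anandamide hydrolase gene Faah (2.40 ± 0.24), and the monoacylglycerol lipase gene Mgll was higher in the mesenchyme (2.63 ± 0.23).

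**Figure D5:**
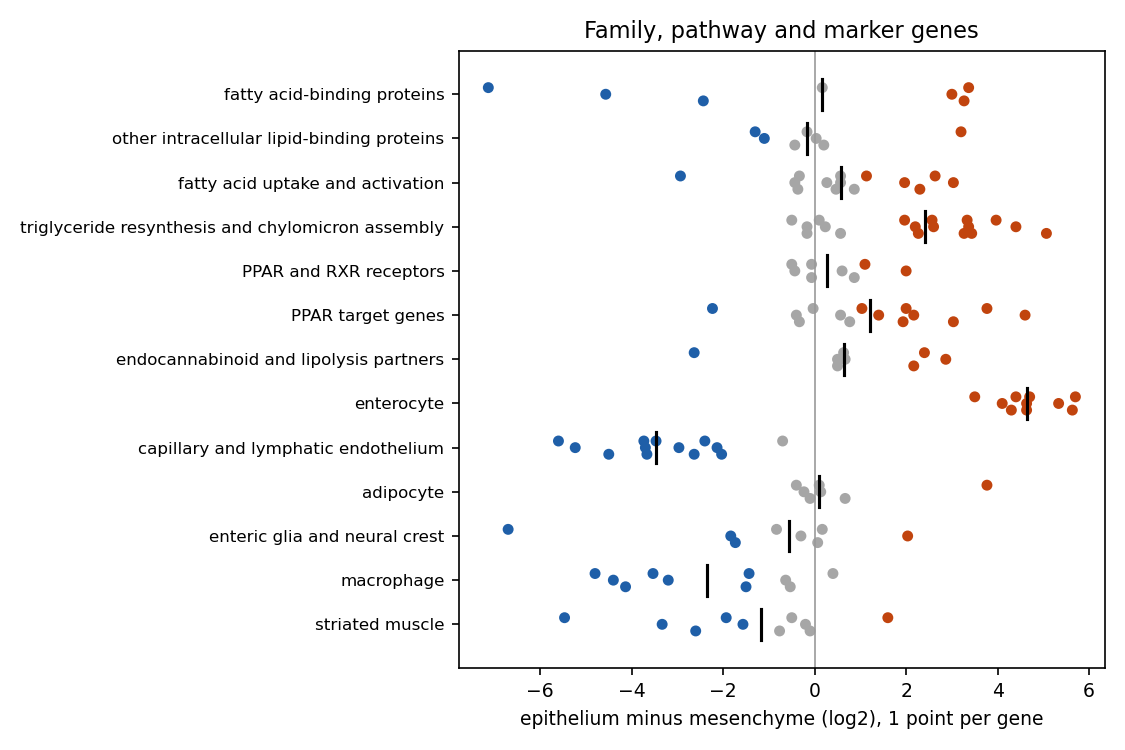
Difference between tissues (x axis, epithelium minus mesenchyme, log2) for each gene of the listed families, pathways and marker lists (y axis), 1 point per gene, coloured where called (orange higher in epithelium, blue higher in mesenchyme, grey not called), with a black bar at the list median. The binding proteins spread from -7.13 to 3.37, whereas genes of triglyceride resynthesis and PPAR targets lie mostly to the right, with medians of 2.42 and 1.22.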

How the data were processed

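The deposited table holds log2 values per probe set, which the authors summarised by RMA according to the notes on processing given with the samples (the submitters' processing notes); version, settings and scaling between arrays are not given in the sources used here. Values are rounded to 0.1, array medians ran from 8.1 to 8.7, no detection calls are given, and the number of arrays limits the precision. The 64 control probe sets were set aside. Symbols came from the platform annotation, updated through RefSeq (GRCm38.p6) for names; 34945 of 45037 probe sets had 1 symbol, 932 several and 9160 none. Some listed genes were not analysed here.

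Tissues were compared with limma 3.58.1 (R 4.3.3; lmFit, eBayes, no covariate) over all probe sets, with Benjamini-Hochberg adjustment, 4 residual and 31.7 prior degrees of freedom. A gene took the statistics of its probe set with the highest mean, adjusted over genes. The fit was checked on simulated data. Named genes were all members, the 3 nearest profiles of each, known partners, and up to 4 called genes per list and direction. Members and lists were chosen with earlier results of these data known. The protein comparison planned was not made.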

Additional observations from a re-analysis of the deposited data

How the results depend on the processing

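Across 274 recomputed member values (13 to 15 alternatives for each probe set or gene), 271 kept their side of the threshold and none of the called ones changed direction; the other 3 were those of 1 Fabp4 probe set given above. The number of member genes called was 6 under every alternative run, and that of probe sets 10 or 11. Adjusted p-values in limma moved far more than the differences: over the alternatives the highest adjusted p of a called member gene was 0.000331, for Fabp1. Leaving out 1 array at a time gave 2.68 to 3.53 for Fabp1, 2.97 to 3.92 for Fabp6 and -7.35 to -6.90 for Fabp4. Scaling by array medians shifted the median of all genes by 0.30, by quantiles 0.27, by loess 0.21 and by spike-in controls -0.26. The share of called genes that were higher in the mesenchyme was then 49.4%, 53.0%, 55.4% and 77.5% instead of 66.0%. The mean of the spike-in controls was 9.80 on mesenchyme B and 10.56 to 10.77 on the other arrays, so the spike-in shift comes mostly from mesenchyme B. With the replicate letter as a block (replicate block), 11 probe sets and 6 genes of the family were called. The labels do not say that same-letter arrays came from the same embryos, so the letters were not taken as pairs. Same-letter arrays correlated at -0.31, -0.15 and 0.12 in their deviations, which cannot settle this with 3 arrays per tissue. Without mesenchyme C, chosen as an alternative after seeing the data, list counts were within 1.5 times, apart from the wider lipid-binding family, where 1 gene in place of 2 was higher in the mesenchyme. Signal near the bacterial controls limits the folds of Fabp4, Fabp6 and Fabp7, and Fabp3 lay near the highest single controls in both tissues. The epithelial values of Fabp1 and Fabp2 lay at the top of the measured range, and whether this limits their folds was not tested.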
